A study of Homo sapiens with 6 samples.

Results

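Aminoacyl-tRNA synthetases are the enzymes that join each amino acid to its transfer RNA, so that the ribosome can read the genetic code. Human cells keep separate sets of these enzymes for the cytosol and for the mitochondria, all encoded in the nucleus, and a few genes serve both places. When amino acids run short or the endoplasmic reticulum is stressed, the transcription factor ATF4 is known to raise many cytosolic synthetase genes together with genes of amino acid synthesis and transport.

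The 35 synthetase genes described here comprise 19 cytosolic and 16 mitochondrial enzymes, chosen by gene symbol, among 19775 genes measured in all. They were read on 72 of 54613 probe sets, and every listed gene had at least 1 probe set. The cells were MCF10A, an established, non-tumorigenic human mammary epithelial line. One group received an RNA mimicking miR-221 and miR-222 (3 biological replicates) and the other a control microRNA (3 biological replicates); their arrays are called the mimic and the control arrays. The RNA supplied is the only stated difference between the groups. The control's sequence, the dose and the time were not stated in the sources used here. Values are log2 intensities from single-colour arrays, 1 array per replicate, and each gene is read at its brightest probe set by mean signal.

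Both microRNAs act mainly through their 3p strands, and the mature RefSeq sequences (GRCh38.p14, minus strand of chromosome X) are shown as the strands that a mimic stands for. The mimic's own sequence was not stated. Capitals mark the seed, bases 2 to 8, which pairs with messenger RNAs and is the same in both.
hsa-miR-221-3p: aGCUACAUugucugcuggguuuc
hsa-miR-222-3p: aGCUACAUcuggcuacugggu

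Array medians lay between 7.59 and 7.66, and arrays of the same group correlated across probe sets with r from 0.9953 to 0.9980, against 0.9821 to 0.9858 between groups. Probe sets are not independent replicates, and precision is limited by the small number of arrays. The basal keratin genes KRT5 and KRT14 had means of 11.78 and 10.88 under the mimic, against 13.50 and 13.11 under the control, well above the array medians in both. Of 8 measured basal mammary markers 6 fell and 1 rose, with summed levels of 14.73 to 14.81 on the log2 scale under the mimic, against 15.59 to 15.65 under the control. Of 6 fibroblast markers DCN rose and LUM fell (summed levels 13.83 to 13.91 against 12.42 to 12.51). That sum lay close to DCN alone (means 13.72 and 12.06), and COL1A1, COL1A2, COL3A1 and PDGFRB did not pass. Of 5 endothelial markers KDR fell (10.65 to 10.74 against 10.88 to 11.03), and of 4 blood cell markers CD14 fell (10.62 to 10.67 against 11.01 to 11.07). By the same criterion, given below, 14.1% of all genes rose and 16.3% fell. The part of these marker shifts in the results below was not tested. All arrays are labelled MCF10A, a single line, so the lists do not count cells of other types. Fewer cells with a transcript cannot be told apart from less of it per cell. The 3' minus 5' signal of the GAPDH control probe sets was 0.02 to 0.04 under the mimic, against -0.05 to 0.02 under the control, and that of ACTB was 0.33 to 0.39 under the mimic, against 0.29 to 0.36 under the control, where the groups overlapped.

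The comparison asked which synthetase transcripts the mimic shifted relative to the control microRNA. The cytosolic set divided: 7 of 19 genes rose, 7 fell and 5 did not pass. CARS1, which charges cysteine, rose most, and VARS1 and KARS1, which charge valine and lysine, fell most. The mitochondrial set moved mainly one way, with 9 of 16 genes lower, 1 higher and 6 that did not pass. Over all genes 14.1% were called higher and 16.3% lower, 30.4% together, by limma with Benjamini-Hochberg adjustment over all probe sets at a threshold of 0.05. The share called rises with signal: among the 9865 genes at least as bright as the dimmest of them, 20.1% were called higher and 27.2% lower, 47.3% together, against 24 of the 35 synthetase genes (68.6%). Read against these shares, the 9 falls among 16 mitochondrial genes were above the share of falls, and the single rise was below the share of rises. The 9865 genes are called genes of like brightness below, although only a lower limit of signal was set. They were not matched to the synthetase genes in brightness.

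Changes were small. The median log2 difference was -0.01 over the cytosolic genes, -0.30 over the mitochondrial genes, 0.03 over all genes and -0.01 over the genes of like brightness. No synthetase gene changed 2-fold, and 2 of 35, KARS1 and VARS1, passed 1.5-fold (5.71%), against 8.72% of all genes and 13.8% of those of like brightness. The arrays of the groups did not overlap for 15 cytosolic and 12 mitochondrial genes, against a background of 45.6% of all genes and 64.0% of those of like brightness.

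**Figure D1:**
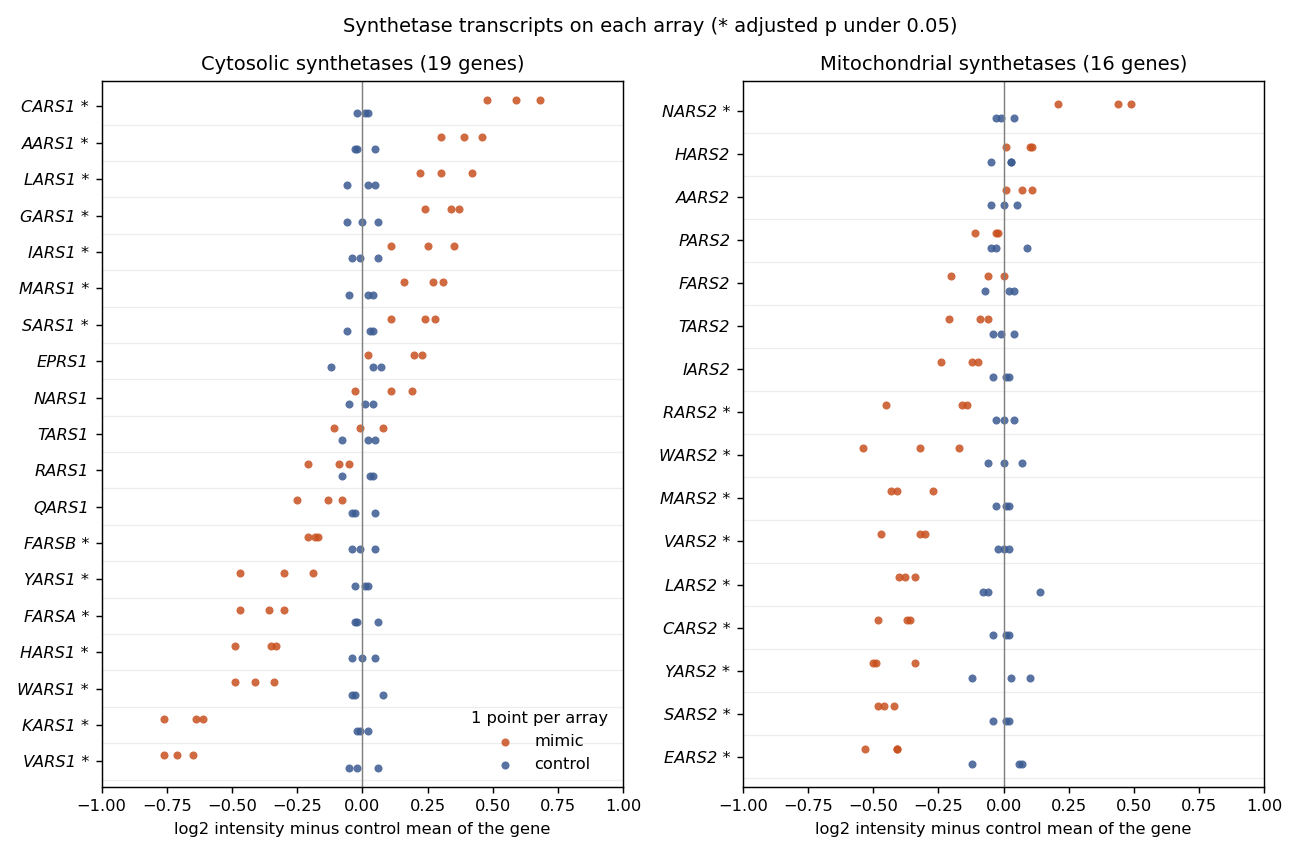
Log2 intensity of each synthetase gene on each of the 6 arrays, minus the mean of its control arrays, with mimic arrays in orange above control arrays in blue and cytosolic genes on the left. Mimic points lie on both sides of the control points among the cytosolic genes and mostly to the left among the mitochondrial genes; asterisks mark the 24 genes called.

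Among the cytosolic genes that rose, CARS1 had 11.56, 11.67 and 11.76 in the mimic arrays, against 11.06, 11.09 and 11.10 in the control arrays. All mimic values lay above all control values, and CARS1 rose by 0.58 ± 0.07 (SE, limma adjusted p = 6.66e-05), on 3 of its 4 probe sets. AARS1, which charges alanine, had 11.25, 11.34 and 11.41 in the mimic arrays, against 10.92, 10.93 and 11.00 in the control arrays. It was 1.31-fold higher (limma adjusted p = 0.00103), again without overlap. GARS1, which charges glycine in the cytosol and, from the same gene, in mitochondria, had 12.08, 12.18 and 12.21 in the mimic arrays, against 11.84, 11.90 and 11.78 in the control arrays. It was 1.24-fold higher (limma adjusted p = 0.00438).

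LARS1, the leucine enzyme that also senses leucine for mTORC1 signalling, averaged 11.34 ± 0.10 under the mimic, against 11.03 ± 0.06 under the control (SD, n = 3 each) and was 1.24-fold higher, called on 2 of its 4 probe sets. IARS1 (isoleucine) rose by 0.24 ± 0.07, MARS1 (methionine) by 0.24 ± 0.07 and SARS1 (serine) by 0.21 ± 0.07 on the log2 scale (SE). These were the least firm of the rises. SARS1 and IARS1 lost the call without any single array other than mimic replicate 1, with adjusted p-values (limma) up to 0.148 for SARS1 and 0.117 for IARS1. MARS1 lost it without mimic replicate 2, mimic replicate 3 or control replicate 1 (adjusted p = 0.0820, 0.0631 and 0.0894, limma). The MARS1 probe sets also list a microRNA gene, and the one used has the suffix x_at, which marks probes that can bind several transcripts.

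Among the cytosolic genes that fell, KARS1 had 12.36, 12.48 and 12.51 in the mimic arrays, against 13.10, 13.14 and 13.11 in the control arrays. Its groups lay 0.60 apart at their nearest, and both of its probe sets fell, by 0.67 and 0.68 (limma adjusted p = 1.48e-05 at the one used). KARS1 encodes both the cytosolic and the mitochondrial lysine enzyme, so the synthetase genes that serve both compartments, GARS1 and KARS1, moved in opposite directions. VARS1, an enzyme that associates with translation elongation factor 1, had 8.82, 8.87 and 8.93 in the mimic arrays, against 9.53, 9.56 and 9.64 in the control arrays. It was 1.63-fold higher in the control (limma adjusted p = 1.02e-05), and its other probe set fell by less, with a difference of -0.25.

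WARS1, the tryptophan enzyme and a known interferon gamma induced gene, had 9.67, 9.60 and 9.52 in the mimic arrays, against 10.09, 9.98 and 9.97 in the control arrays. Both of its probe sets fell, by 0.42 and 0.68. HARS1 (histidine) had a difference of -0.39 ± 0.07 and YARS1 (tyrosine) one of -0.32 ± 0.08 (SE). Phenylalanine is charged by an enzyme of 2 subunits, and both subunit genes fell: FARSA by 0.38 and 0.43 on its probe sets and FARSB by 0.19 at the one used. The FARSB call (adjusted p = 0.0406) was lost without any single array, with adjusted p-values (limma) from 0.0668 to 0.138.

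The 5 cytosolic genes that did not pass were EPRS1, NARS1, TARS1, RARS1 and QARS1. EPRS1, the joined glutamate and proline enzyme, had a difference of 0.16 (95% interval -0.02 to 0.33). NARS1 for asparagine had 0.09 (-0.06 to 0.25) and TARS1 for threonine -0.01 (-0.17 to 0.14). RARS1 for arginine had -0.12 (-0.27 to 0.03) and QARS1 for glutamine -0.15 (-0.30 to -0.00). These intervals leave room for changes as large as several of those called. EPRS1 passed as higher after quantile normalization again (adjusted p = 0.0226, limma) and with array weights (adjusted p = 0.0349, limma). NARS1 passed as higher after quantile normalization again (adjusted p = 0.0271, limma). QARS1 lay lower in all mimic arrays than in all control arrays, and its probe set also lists a microRNA gene.

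Several cytosolic synthetases sit together in the multisynthetase complex, a particle that holds the enzymes around 3 scaffold proteins. Of the 7 enzymes of the complex described here, IARS1, LARS1 and MARS1 rose, KARS1 fell, and EPRS1, QARS1 and RARS1 did not pass. Outside the complex 4 of 12 rose and 6 fell. Among genes of like brightness 20.1% rose and 27.2% fell. Of the 3 rises in the complex only LARS1 was called without mimic replicate 2, mimic replicate 3 or control replicate 1. EPRS1 was also called higher after quantile normalization again or with array weights. The scaffold gene AIMP1 had 11.26, 11.36 and 11.41 in the mimic arrays, against 11.17, 11.21 and 11.15 in the control arrays, a difference of 0.17 ± 0.06 (SE) that did not pass (limma adjusted p = 0.0825). It did pass without mimic replicate 1 (adjusted p = 0.0320, limma) and after quantile normalization again (0.00527). AIMP2 and EEF1E1 were not analysed here.

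The mitochondrial enzymes charge the transfer RNAs encoded by mitochondrial DNA, which make subunits of the respiratory chain. SARS2 (serine) had 8.72, 8.78 and 8.74 in the mimic arrays, against 9.16, 9.21 and 9.22 in the control arrays, a difference of -0.45 ± 0.06 (SE, limma adjusted p = 0.000175). EARS2 (glutamate) had 9.09, 9.21 and 9.21 in the mimic arrays, against 9.69, 9.68 and 9.50 in the control arrays. EARS2 fell on 3 of its 4 probe sets, by 0.43 to 0.45, and all mimic arrays lay below all control arrays at the one used. YARS2 (tyrosine) fell by 0.45, CARS2 (cysteine) by 0.40, LARS2 (leucine) and MARS2 (methionine) by 0.37 each, and VARS2 (valine) by 0.37 on the log2 scale.

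LARS2 fell on both of its probe sets, the other one by 0.65. CARS2 fell at 1 of its 5 probe sets, and the other 4 had differences from -0.05 to 0.08. WARS2 (tryptophan) averaged 9.20 ± 0.19 under the mimic, against 9.54 ± 0.07 under the control (SD, n = 3 each) and was 1.27-fold higher in the control. Its call was lost without control replicate 2 (adjusted p = 0.0693, limma). RARS2 (arginine) averaged 9.86 ± 0.17 under the mimic, against 10.11 ± 0.03 under the control (SD, n = 3 each), with mimic replicate 1 at 9.66 and the other mimic arrays at 9.95 and 9.97. It passed narrowly (limma adjusted p = 0.0485), lost the call without any single array other than mimic replicate 3 (adjusted p from 0.0576 to 0.141), and fell on 3 of its 6 probe sets.

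NARS2, the mitochondrial asparagine enzyme, was the exception. It had 9.13, 9.36 and 9.41 in the mimic arrays, against 8.89, 8.91 and 8.96 in the control arrays, and was 1.30-fold higher (limma adjusted p = 0.00403). AARS2 (0.06, 95% interval -0.07 to 0.20), HARS2 (0.07, -0.07 to 0.21), PARS2 (-0.05, -0.20 to 0.09), FARS2 (-0.09, -0.24 to 0.07), TARS2 (-0.12, -0.26 to 0.02) and IARS2 (-0.15, -0.29 to -0.01) did not pass. IARS2, the isoleucine enzyme, passed with eBayes trend and robust (adjusted p = 0.0266, limma). The TARS2 probe set also lists a microRNA gene.

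Of the 19 synthetase genes with more than 1 probe set, 11 were called at the probe set used and at another, 4 at the one used alone and 4 at none, and 0 had probe sets called in opposite directions. Of all 72 synthetase probe sets 12 were called higher and 26 lower, against 11.6% and 13.1% of all probe sets, 24.8% together. The share called rises with signal, and none was worked out for probe sets of like brightness. The probe sets below a mean of 6, for FARSB, CARS2, RARS2 and WARS2, had differences between -0.05 and 0.07. No detection calls were used, so it is not known whether these lie above background.

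**Figure D2:**
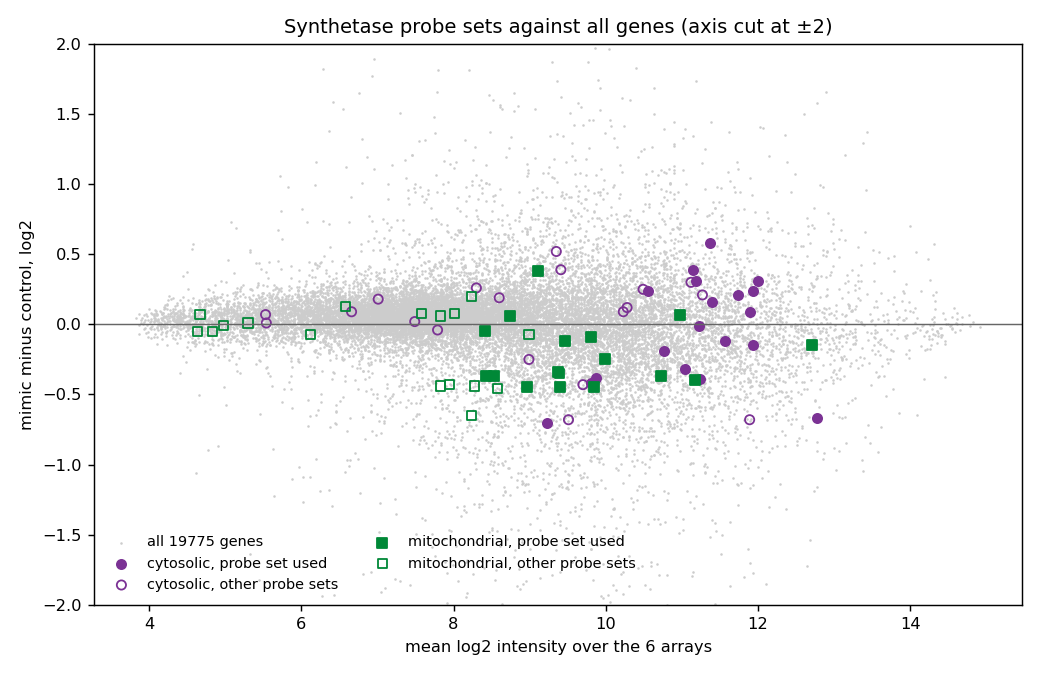
Difference (mimic minus control, log2) against the mean log2 intensity of the 6 arrays, for all 19775 genes in grey and the 72 synthetase probe sets in purple (cytosolic) and green (mitochondrial), filled where used. The probe sets used lie between 8.41 and 12.78 in mean signal, and the dim ones near 0 difference.

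Setting the cytosolic enzyme against the mitochondrial enzyme of the same amino acid asked whether the genes of a pair changed alike on the same arrays. Over 17 pairs, the cytosolic value minus the mitochondrial value did not overlap between the groups for 13. The cytosolic gene was relatively higher in the mimic for 9 of these and relatively lower for 4. Of single genes of like brightness 64.0% did not overlap. No such share was worked out for other pairs of genes, so the count of 13 has no background of its own. An exact two-sided permutation test with 3 arrays against 3 cannot give a p below 0.10. After Benjamini-Hochberg adjustment over the 17 pairs the lowest p of this test was 0.13. EPRS1 and FARS2 each stand in 2 pairs, so the pairs are not independent.

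The cysteine pair differed most. CARS1 minus CARS2 was 0.67, 0.66 and 0.76 in the mimic arrays, against -0.32, -0.30 and -0.24 in the control arrays, a shift of 0.98 (exact permutation p = 0.10). The leucine, serine and methionine pairs shifted the same way, by 0.68 for LARS1 minus LARS2, 0.66 for SARS1 minus SARS2 and 0.61 for MARS1 minus MARS2. In each of these pairs the cytosolic gene rose and the mitochondrial gene fell. For cysteine this fall rests on the probe set used, 1 of 5 for CARS2. With its probe sets averaged CARS2 had -0.06 (adjusted p = 0.434, limma). VARS1 minus VARS2 and NARS1 minus NARS2 shifted the other way, by -0.34 and -0.28. The tryptophan, tyrosine and threonine pairs and FARSB minus FARS2 overlapped between groups, with shifts of -0.07, 0.13, 0.11 and -0.10. The other phenylalanine pair, FARSA minus FARS2, shifted by -0.29 without overlap.

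**Figure D3:**
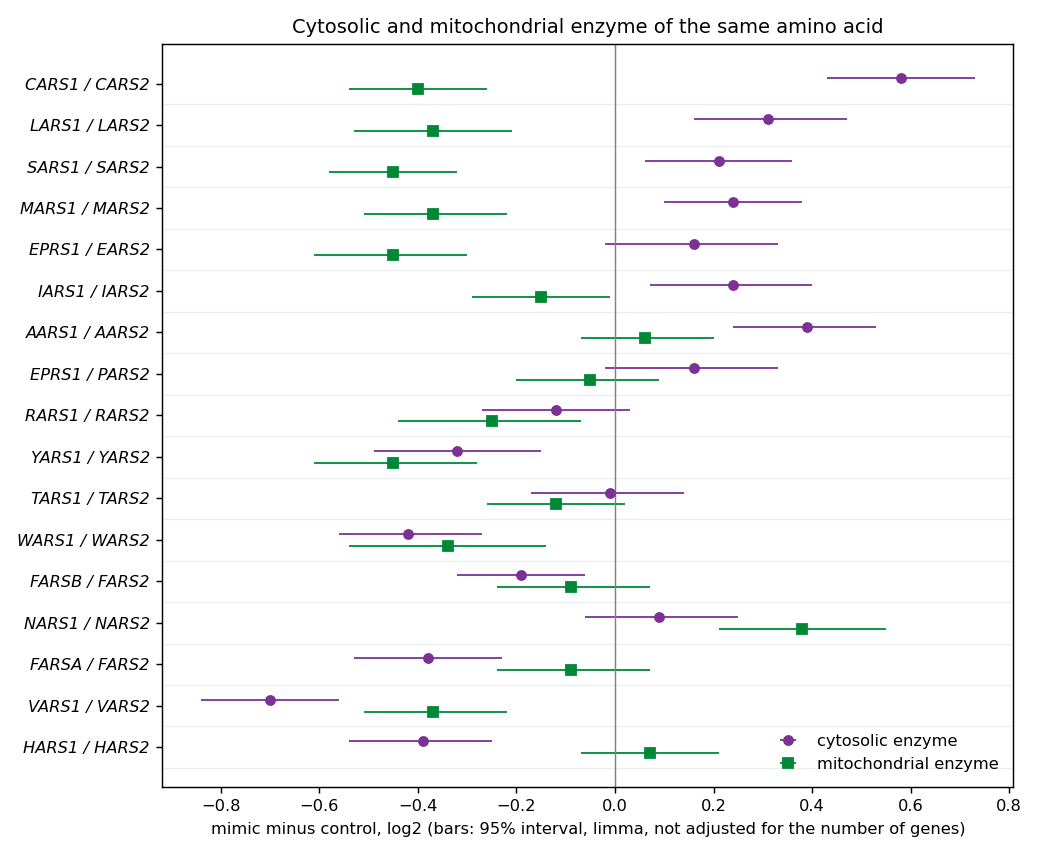
Difference (mimic minus control, log2) of the cytosolic enzyme (purple circles) and the mitochondrial enzyme (green squares) of 17 pairs, with 95% intervals from limma, ordered by how far the cytosolic gene moved relative to the mitochondrial one. The cysteine, leucine, serine and methionine pairs lie on opposite sides of 0, and the tryptophan and tyrosine pairs lie together below it.

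The histidine pair is of interest because its genes stand head to head on chromosome 5 (GRCh38.p14), HARS1 at 140673905 to 140691370 on the minus strand and HARS2 from 140691455 on the plus strand. The 84 bases between their RefSeq starts, chr5:140691371-140691454, plus strand, are shown because any element within them lies upstream of both genes.
HARS1 to HARS2: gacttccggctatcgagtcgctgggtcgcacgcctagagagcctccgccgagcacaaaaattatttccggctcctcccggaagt
HARS1 had 10.94, 11.08 and 11.10 in the mimic arrays, against 11.48, 11.43 and 11.39 in the control arrays. HARS2 had 10.95, 11.05 and 11.04 in the mimic arrays, against 10.89, 10.97 and 10.97 in the control arrays. HARS1 thus fell (limma adjusted p = 0.00102) while HARS2 overlapped between the groups, and HARS1 minus HARS2 shifted by -0.47 without overlap (exact permutation p = 0.10).

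ATF4 is known to bind composite sites that hold the letters TGATGNAA, as in the ASNS promoter. The letters were searched on both strands of the RefSeq promoter windows (GRCh38.p14), which run from 250 bases before to 50 bases after each start and covered 30 of the 35 genes. They occur in 3.62% of all 35116 windows. A gene can have more than 1 window, and it counts as matched if any of them holds the letters. Shares of windows, here and below, are therefore not shares of genes. Of the 16 cytosolic genes with a window, 7 held a match: 5 of these rose, 0 fell, and TARS1 and NARS1 did not pass. Of the 9 without a match SARS1 rose, 5 fell and 3 did not pass. Over genes of like brightness 20.1% rose and 27.2% fell, and no such share was worked out for genes that hold the letters. The motifs were chosen with the values known, so this split cannot test a link to the changes. The median differences were 0.24 with and -0.19 without a match. Without mimic replicate 2, mimic replicate 3 or control replicate 1 the rises numbered 3 with a match (AARS1, CARS1 and GARS1) and 0 without one, and the falls 0 and 4. After quantile normalization again 6 with a match and 2 without one rose. With array weights 5 with a match and 2 without one rose. The 2 without a match were EPRS1 and SARS1 in both settings. Of 14 mitochondrial genes 1, YARS2, held a match, and it fell.

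The matches are shown with their neighbouring bases on the strand of the gene, the match in capitals, as TGATGNAA or its reverse complement, to let the sites be compared with that of ASNS. Positions count from the RefSeq start of the window that holds the match, with -1 the base before it.
CARS1 (chr11:3057413-3057430, minus strand, match from -2): ggcggTTGCATCAgattc
AARS1 (chr16:70289665-70289714, minus strand, match from -187): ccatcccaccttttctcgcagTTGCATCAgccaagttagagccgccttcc
GARS1 (chr7:30594824-30594873, plus strand, match from -33): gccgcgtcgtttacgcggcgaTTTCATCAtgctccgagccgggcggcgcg
IARS1 (chr9:92293698-92293731, minus strand, match from -13): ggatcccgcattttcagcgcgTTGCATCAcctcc
MARS1 (chr12:57488059-57488076, plus strand, match from -4): tccggTTGCATCAgcgag
TARS1 (chr5:33440962-33440979, plus strand, match from 3): ttcgaTTGCATCAgctgg
NARS1 (chr18:57621810-57621827, minus strand, match from 15): ctctcTGATGCAAcgccg
ASNS (chr7:97872448-97872497, minus strand, match from -68): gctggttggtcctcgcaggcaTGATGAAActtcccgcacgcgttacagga
Of the 7 cytosolic genes 6 hold the same 8 letters, TGATGCAA or their reverse complement, which occur in 0.866% of all windows, and GARS1 holds the variant. The E-box CACGTG, the same on both strands and bound by MYC among other factors, occurs in 7.26% of windows. It was found in 1 cytosolic gene, IARS1, which rose, and in 3 mitochondrial genes, CARS2, EARS2 and MARS2, which fell. The fourth motif searched, TGACGTCA, was in 0 of the windows of these genes and in 1.85% of all windows. A match is a description of these letters and does not show that a factor was bound.

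**Figure D4:**
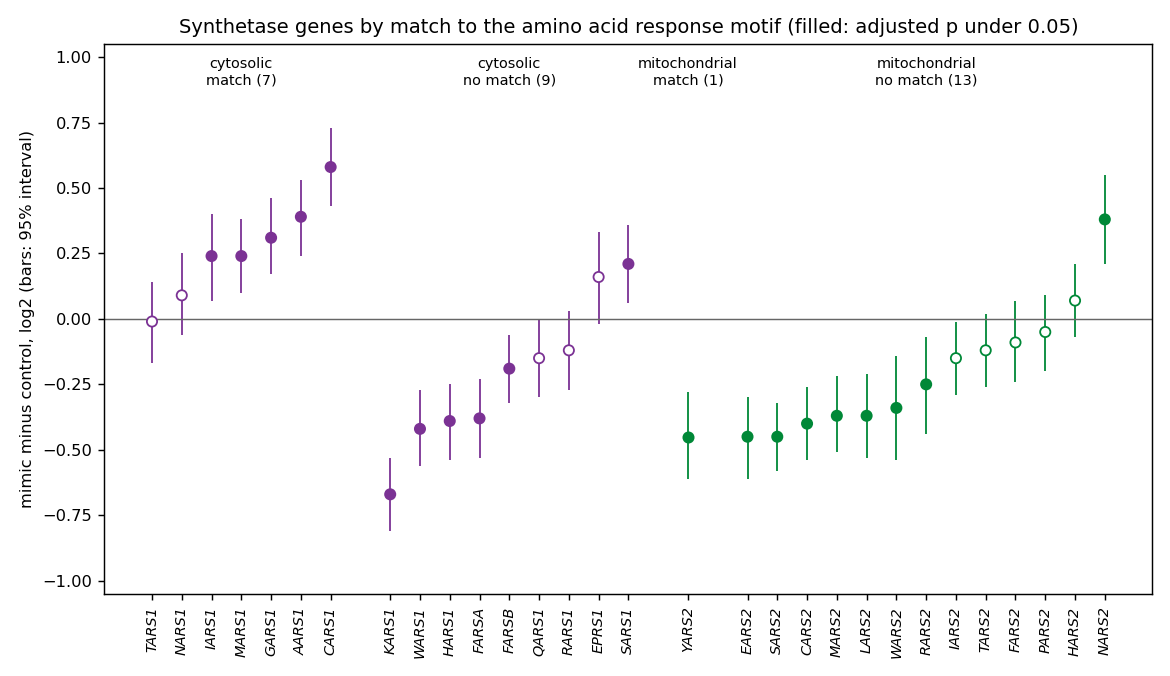
Difference (mimic minus control, log2, with 95% intervals from limma) of the 30 synthetase genes with a promoter window, by compartment and by match to TGATGNAA, filled where the adjusted p was under 0.05. The 7 cytosolic genes with a match lie between -0.01 and 0.58, and the 9 without one between -0.67 and 0.21.

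Beside the synthetases, 9 companion lists were read from the same fit, with 126 measured genes. Their counts are read against the genes of like brightness, of which 47.3% were called, 20.1% higher and 27.2% lower. The lower limit of those genes, a mean of 8.41, was that of the dimmest synthetase gene. Some companion genes are dimmer, among them CXCL10, CXCL11, CTH and PSTK, so this background is not matched to the lists. Of 20 eIF2 kinases and integrated stress factors 6 rose and 4 fell (median 0.07), and these 10 of 20 are near the background share. ATF4 had 13.23, 13.31 and 13.34 in the mimic arrays, against 12.98, 13.02 and 12.99 in the control arrays, and was 1.23-fold higher (limma adjusted p = 0.00407). ATF3, a stress-induced factor, was 2.90-fold higher and PPP1R15A, which restores translation by dephosphorylating eIF2, 1.67-fold higher. EIF2AK3, the eIF2 kinase of endoplasmic reticulum stress, was 1.98-fold higher in the control, called on 1 of its 2 probe sets. The factor gene ATF5 was 1.65-fold higher in the control, called on 2 of its 4 probe sets.

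Other reported ATF4 targets of amino acid metabolism moved both ways, with 10 of 23 higher and 8 lower (median 0.02). ASNS, asparagine synthetase, had 9.74, 10.01 and 10.09 in the mimic arrays, against 9.01, 9.01 and 9.04 in the control arrays, on 1 of its 2 probe sets. SLC7A11, a cystine transporter subunit, rose by 2.77, and CHAC1, which breaks down glutathione, by 0.73. PSPH, the last enzyme of serine synthesis, had a difference of -1.82 ± 0.11 (SE), called on 2 of its 3 probe sets. MYC, a known activator of translation genes, had 10.86, 10.96 and 10.96 in the mimic arrays, against 12.42, 12.38 and 12.21 in the control arrays, and was 2.66-fold higher in the control (limma adjusted p = 1.26e-07).

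Of 40 genes that mature, modify or export transfer RNA 17 fell and 4 rose (median -0.16), 52.5% called together against the background of 47.3%, in which falls also outnumber rises. PUS7, a pseudouridine synthase, fell by 0.78, and TRNT1, which adds the CCA end to which the amino acid is joined, by 0.63. The methyltransferase genes TRMT10A and TRMT6 rose by 0.96 and 0.67. Of 8 genes that edit or complete charged transfer RNAs 5 fell and 1 rose (median -0.29), 75.0% called together against 47.3%. The rise, GATC (0.24, limma adjusted p = 0.0406), is named here after its value was seen. No gene of the list rose without mimic replicate 2, mimic replicate 3, control replicate 1 or control replicate 3, or with arrays centred on their medians. The list had 2 rises without the 40% dimmest probe sets, after quantile normalization again, and with eBayes trend and robust. Array weights, leaving out mimic replicate 1 and removing the intensity trend also gave 2. The median was -0.10 with each gene's probe sets averaged. The falls include GATB, a subunit of the enzyme that makes mitochondrial glutaminyl-tRNA (-0.35), and MTFMT, which formylates mitochondrial methionyl-tRNA (-0.31). GATB was called on 1 of its 2 probe sets. The falls also include DTD2, a deacylase of mischarged transfer RNA (-0.35), and PSTK of the selenocysteine route (-0.39), whose other probe set was called higher. MTFMT lost its call without control replicate 1 or control replicate 2 (adjusted p = 0.0512 and 0.0501, limma), and the list then had 3 falls.

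Of 9 mitochondrial translation factor genes 5 fell and 1 rose (median -0.20), against background shares of 27.2% and 20.1%. GUF1, an elongation factor of the mitochondria, fell by 0.72, TUFM, the mitochondrial EF-Tu, by 0.43 and GFM1 by 0.35, while the initiation factor gene MTIF3 rose by 0.27, a call lost without mimic replicate 2 (adjusted p = 0.0680, limma). The number of falls was 3 without mimic replicate 1, mimic replicate 2, control replicate 1 or control replicate 2, nearer to that share. Of 6 cytosolic elongation genes 2 fell and 1 rose. EIF5A fell by 0.83, EEF1D by 0.18 (limma adjusted p = 0.0464, lost without any single array) and EEF2K, the kinase that inhibits EF2, rose by 0.28. EEF1D was called on 2 of its 4 probe sets and EEF2K on 1 of its 2. Of 15 interferon gamma induced genes 6 fell and 3 rose, against 27.2% and 20.1% of genes of like brightness. The shares over all genes were 16.3% and 14.1%. Some of the 15, such as CXCL10 and CXCL11, are dimmer than the genes of like brightness, so neither share is matched to them. GBP2 and CXCL11 fell by 0.80 and 1.10, and IRF9 and SOCS1 rose by 0.95 and 2.03. SOCS1 was called on 2 of its 4 probe sets.

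**Figure D5:**
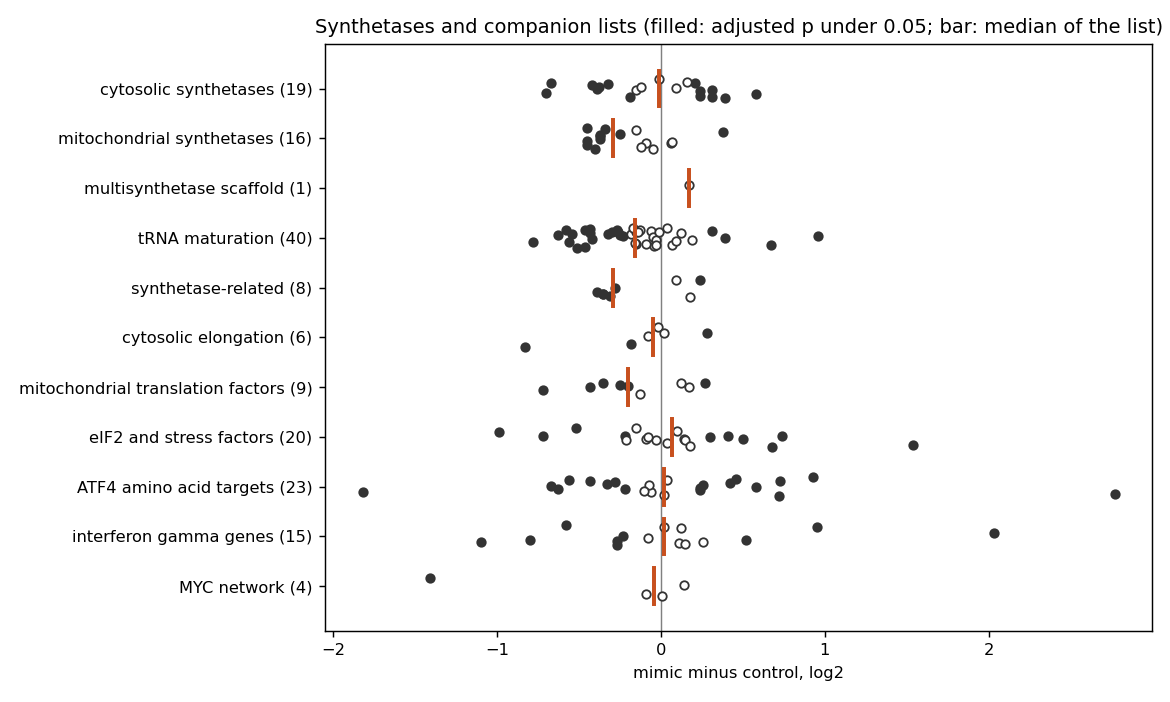
Difference (mimic minus control, log2) of each gene in the 2 synthetase sets and the 9 companion lists, filled where the adjusted p was under 0.05, with the median of each list as an orange bar. The mitochondrial synthetases, the genes for completing charged transfer RNA and the mitochondrial translation factors have medians of -0.30, -0.29 and -0.20.

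The replicates of the mimic group did not vary evenly. Mimic replicate 1 was the lowest of the mimic arrays for 31 of 35 synthetase genes, against 73.3% of the genes of like brightness and 47.0% of all genes. Its median deviation from the group mean was -0.09 on the log2 scale over the synthetase genes. Without it 7 cytosolic genes rose and 6 fell, and 8 mitochondrial genes fell with a median of -0.20.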

How the data were processed

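The authors deposited log2 intensities per probe set, normalized across arrays by robust multi-array averaging, RMA, as the submitters' processing notes state; no version or setting is named in the sources used here. RMA makes the arrays' distributions alike and compresses differences between dim values. Of 54675 probe sets, 62 controls were left out. Genes were read at probe sets with exactly 1 symbol (41091); the 3 synthetase genes MARS1, QARS1 and TARS2 were read at probe sets that also list a microRNA gene, since membership was decided by any listed symbol.

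Differences are mimic minus control, fitted with limma 3.58.1 (lmFit and eBayes, R 4.3.3) over all 54613 probe sets and adjusted by Benjamini-Hochberg. A fold is 2 raised to that difference. Members and lists were chosen with earlier results of these data known, and the motifs with the values known. All synthetase genes are named, and of each companion list up to 4 called members with the largest change, plus ATF4, ASNS, MYC and AIMP1. On simulated data with 200 changed probe sets the fit recovered 62% of differences of 0.5 and 95% of differences of 1. Of its calls there, 1.9% were unchanged probe sets. The simulation had independent noise and far fewer changed probe sets than the 13523 called in these data. Its shares therefore do not give the recovery or the false calls of this series. Same-numbered replicates did not deviate together (correlations -0.11, 0.08 and 0.08), so they were not treated as pairs. Alternatives are given at the end. Python 3.11.15, pandas 2.3.3 and numpy 2.4.6 prepared the tables.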

Additional observations from a re-analysis of the deposited data

How the results depend on the processing

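Of 490 values of the 35 synthetase genes under 14 alternatives, 444 stayed on the same side of 0 and of the threshold, and 17 of the 24 called genes kept the call in all 14. The other 7 were FARSB, IARS1, MARS1, SARS1, RARS2, CARS2 and WARS2. CARS2 had -0.06 with its probe sets averaged (adjusted p = 0.434). TARS1, not called, changed sign, to 0.06 after quantile normalization again, 0.03 with the intensity trend removed, 0.04 with its probe sets averaged, 0.03 without mimic replicate 1 and 0.01 without control replicate 2. Leaving out 1 array gave 4 to 7 cytosolic rises, with 4 each without mimic replicate 2, mimic replicate 3 or control replicate 1, and mitochondrial medians from -0.32 to -0.20. Averaging each gene's probe sets gave a median of -0.16. With array weights 9576 probe sets were called higher, against 6343; the cause was not tested. The numbers do not pair the replicates; with a replicate block, 5 cytosolic genes rose and 6 fell, 9 mitochondrial genes fell, and FARSB, IARS1 and SARS1 lost the call. After quantile normalization 9 cytosolic genes rose and 6 fell, and over all genes 3418 rose and 3027 fell, turning the majority of 3233 falls over 2780 rises. Array weights also turned it (3905 and 3715). Of the companion lists, tRNA maturation had 14 to 19 falls over the alternatives and mitochondrial translation factors 3 to 5. No detection calls were used, so the lower limit of measurement is unknown, and 3 arrays per group limit the precision.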
